A study of Mus musculus with 12 samples.

Results

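Open chromatin was described at the genes of the transcription factors TCF1 (Tcf7, on chromosome 11) and LEF1 (Lef1, on chromosome 3), in DNase-seq peak lists of mouse blood progenitors and early T cell precursors. Every peak within 100 kb either side of each gene body was taken. After peaks of all libraries that overlapped were merged, the windows held 41 DNase I hypersensitive sites (DHSs) for Tcf7 and 44 for Lef1, 85 of 170207 in the genome. The study followed marrow progenitors of C57BL/6J mice into the T lineage ex vivo, with and without Notch ligand, and asked which promoters open under strong Notch signalling. There were 12 libraries in 5 groups. LSK (3 libraries) were stem and progenitor cells freshly sorted from marrow, lacking lineage markers and carrying SCA1 and KIT. DN1 (2 libraries), DN2a (2) and DN2b (2) were early T cell stages in their order of appearance, sorted after culture of LSK cells on the immobilized Notch ligand Delta1ext-IgG. DN1 cells were KIT++ CD44+ CD25-, DN2a cells KIT++ CD44+ CD25+, and DN2b cells KIT+ CD44lo CD25+. IgG (3 libraries) were LSK cells cultured on human IgG1, with no Notch ligand. IL-7 was added to the cultures that gave DN2 cells and not to those that gave DN1 cells, so stage and IL-7 cannot be told apart between them. The methods name IL-7 for Delta1 cultures only, so the same limit holds for DN2 against all other libraries. LSK cells were not cultured, so Delta1 and culture itself cannot be told apart between LSK and the Delta1-cultured libraries.

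TCF1 and LEF1 are sequence-specific factors with an HMG box that bends DNA. They bind the same short motif, recruit beta-catenin when Wnt signalling is active, and recruit repressors of the Groucho/TLE family otherwise. TCF1 is known as an early factor of the T lineage that Notch signalling induces in progenitors entering the thymus, and LEF1 as a close relative that acts beside it from the later double-negative stages on.

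The sequences below are the peaks that carry the findings at each gene: the 7 Tcf7 sites that were higher in Delta1 culture, and 3 Lef1 sites, of which 2 were higher in DN2 libraries at equal list lengths and 1 was among the highest sites of its window. Each is the 150 bp of the highest-ranked peak of the site, read from GRCm38 (the assembly named mm10 in the deposited lists) on the strand of the gene, 5′ to 3′. For the promoter peak only the bases upstream of every annotated Tcf7 start are given. Capitals mark the letters of 7 motifs searched on both strands, which are spelled out with their frequencies further on. Positions are distances in kb from the gene start of GENCODE release M21, negative upstream.
Tcf7 promoter site (chr11:52283384-52283466, minus strand): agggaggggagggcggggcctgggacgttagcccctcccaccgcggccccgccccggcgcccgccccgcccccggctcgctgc
Tcf7 -22.5 kb (chr11:52305397-52305546, minus strand): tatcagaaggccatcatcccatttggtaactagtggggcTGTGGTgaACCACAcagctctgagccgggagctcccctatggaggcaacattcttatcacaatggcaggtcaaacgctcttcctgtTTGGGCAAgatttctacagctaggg
Tcf7 -26.6 kb (chr11:52309557-52309706, minus strand): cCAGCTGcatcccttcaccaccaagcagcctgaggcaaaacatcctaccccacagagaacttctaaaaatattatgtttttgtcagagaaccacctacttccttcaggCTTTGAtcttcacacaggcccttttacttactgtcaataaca
Tcf7 -27.9 kb (chr11:52310857-52311006, minus strand): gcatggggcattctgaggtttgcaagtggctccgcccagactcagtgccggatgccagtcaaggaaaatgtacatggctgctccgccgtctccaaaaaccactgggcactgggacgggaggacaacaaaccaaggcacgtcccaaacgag
Tcf7 -31.4 kb (chr11:52314317-52314466, minus strand): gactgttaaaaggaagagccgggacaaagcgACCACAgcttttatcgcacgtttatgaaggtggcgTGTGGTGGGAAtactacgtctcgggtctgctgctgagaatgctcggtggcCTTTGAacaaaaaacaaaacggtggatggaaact
Tcf7 -35.6 kb (chr11:52318537-52318686, minus strand): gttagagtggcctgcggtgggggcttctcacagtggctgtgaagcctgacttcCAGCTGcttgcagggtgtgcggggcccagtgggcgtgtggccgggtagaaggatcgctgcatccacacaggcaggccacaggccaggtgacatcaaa
Tcf7 -58.2 kb (chr11:52341177-52341326, minus strand): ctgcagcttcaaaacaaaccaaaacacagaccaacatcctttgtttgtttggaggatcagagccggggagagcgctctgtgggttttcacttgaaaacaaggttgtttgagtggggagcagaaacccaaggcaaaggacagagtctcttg
Lef1 -96.0 kb (chr3:131014437-131014586, plus strand): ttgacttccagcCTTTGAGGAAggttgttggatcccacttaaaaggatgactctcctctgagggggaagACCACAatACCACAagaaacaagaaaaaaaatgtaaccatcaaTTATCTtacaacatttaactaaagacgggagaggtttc
Lef1 +7.5 kb (chr3:131117917-131118066, plus strand): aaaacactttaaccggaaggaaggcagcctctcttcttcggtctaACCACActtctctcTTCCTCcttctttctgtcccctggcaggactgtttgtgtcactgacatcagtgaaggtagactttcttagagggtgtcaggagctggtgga
Lef1 +98.2 kb (chr3:131208637-131208786, plus strand): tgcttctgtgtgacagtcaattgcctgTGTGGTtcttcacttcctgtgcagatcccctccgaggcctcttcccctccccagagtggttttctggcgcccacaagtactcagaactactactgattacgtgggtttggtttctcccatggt

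Each library is a list of peaks with a whole-number score of unstated meaning, so a peak is given here by its percentile, the share of its own list that it outranks, from 0 to 100. A percentile of 0 was entered where a library had no peak. Read totals were not used here, so depth is unknown, and the number of peaks stands in its place. The lists held 53869 to 62377 peaks in LSK, 96436 and 69391 in DN1, 68478 and 57729 in DN2a, 61484 and 111582 in DN2b, and 32952 to 37511 in IgG. The longest list was thus 3.39 times the shortest, and the IgG lists were the shortest of all. A missing peak means less in a short list, and a peak of one rank sits at a higher percentile in a longer list. Site numbers, calls, gains and losses were therefore repeated at equal list lengths, with each list cut to its best 32952 peaks by score. Percentiles of single sites and promoters are as deposited unless equal lengths are named. A library is a bulk of cells, so a site open in more cells cannot be told apart from one more open in each cell. Promoters of 8 T lineage markers (Il2ra, Cd3e, Cd3d, Cd3g, Lck, Thy1, Ptcra, Rag1) were checked against the labels. The number with a peak was 1, 1 and 0 in LSK, 2 and 2 in DN1, 5 and 5 in DN2a, 7 and 7 in DN2b, and 0 in each IgG library. Lck (70.4 against 8.73) and Rag1 (59.2 against 0) were called higher in Delta1 culture. Both had an adjusted p of 0.0272 in the exact permutation test over all promoters. Neither was called at equal list lengths (adjusted p 0.099 and 0.214 in the same test), nor without any 1 Delta1-cultured library. Of 7 myeloid promoters, 1 to 3 had a peak in LSK and Delta1-cultured libraries and 3, 4 and 4 in IgG. Mpo and Elane, granule genes of neutrophil precursors, each had a peak in 1 IgG library only. The promoter of Cebpa, a factor of the myeloid lineage, was open in all 12 libraries and called lower in Delta1 culture, at 76.3 against 91.2 (adjusted p 0.0485 in the exact permutation test over all promoters). Of 4 mast cell and basophil promoters, Fcer1a and Ms4a2 had no peak in any library, and Cpa3, a mast cell protease, had one in every LSK and Delta1-cultured library and in no IgG library. Cpa3 was called higher in Delta1 culture, at 73.1 against 19.1 (adjusted p 0.0272 in the same test), and at equal list lengths it was not (0.0539) while Cebpa was (0.0375). Of the 12 libraries left out in turn, the Cebpa call held only without LSK replicate 1, and the Cpa3 call was lost without any 1 Delta1-cultured library. Of 7 progenitor promoters 4 had a peak in at least 1 library, and none was called. Among them Flt3, a cytokine receptor of early progenitors, had 91.7 to 94.0 in LSK, 79.0 to 92.2 in Delta1 culture, and 29.5, none and 44.7 in IgG. Cd34, a surface protein of progenitors, had 52.7 to 75.1 in LSK, 76.5 and 74.6 in DN1, 27.9, none, 30.8 and 39.9 in the DN2 libraries, and none in IgG. Kit and Meis1 had a peak in all 12 libraries. Kit had 84.1 to 92.2 in LSK, 78.3 to 92.7 in Delta1 culture, and 69.8, 14.2 and 62.8 in IgG. Meis1 had 87.4 to 96.3 in LSK, 74.4 to 95.6 in Delta1 culture, and 70.7, 78.1 and 86.3 in IgG. Every LSK library lay above every IgG library there, and the Delta1-cultured libraries overlapped both. Of 4 B cell promoters only Ebf1 had a peak, in every library but IgG replicates 1 and 2. Of 3 erythroid promoters, Gata1 had none, Klf1 had one in DN1 replicate 1 only, and Epor, the erythropoietin receptor, had one in every LSK and Delta1-cultured library and in no IgG library. The part of cell composition in the results below was not tested.

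With the lists as deposited, the Tcf7 window held more sites with a peak in every library cultured on Delta1 than in every other library. The number of its sites with a peak was 13, 15 and 15 in LSK, 26 and 24 in DN1, 23 and 23 in DN2a, 27 and 35 in DN2b, and 5, 7 and 3 in IgG. The lowest Delta1-cultured library was thus above the highest LSK library, and no IgG library reached LSK. The 6 Delta1-cultured libraries held 26.3 ± 4.55 sites (SD, n = 6) and the other 6 held 9.67 ± 5.32 (SD, n = 6), a difference of 16.7 sites. In a two-sided exact permutation test over libraries the adjusted p was 0.0208, with Benjamini-Hochberg adjustment over the windows of 20852 protein-coding genes. The same call was made for 32.5% of all windows, and the median difference over all windows was 4.83 sites. Only 150 windows had a larger difference than Tcf7. At equal list lengths the numbers were 11, 12 and 11 in LSK, 12 and 12 in DN1, 19 and 19 in DN2a, 21 and 21 in DN2b, and 5, 7 and 3 in IgG. The difference was then 9.17 sites and the adjusted p 0.0755, so the call was lost, and DN1 lay at the level of LSK. With the lists as deposited, the call was also lost without IgG replicate 2 (adjusted p 0.0506) and held without any other library. It was lost too when sites were counted per 10000 peaks of a list (0.0679), and with LSK alone (0.389) or IgG alone (0.0548) as the control.

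**Figure D1:**
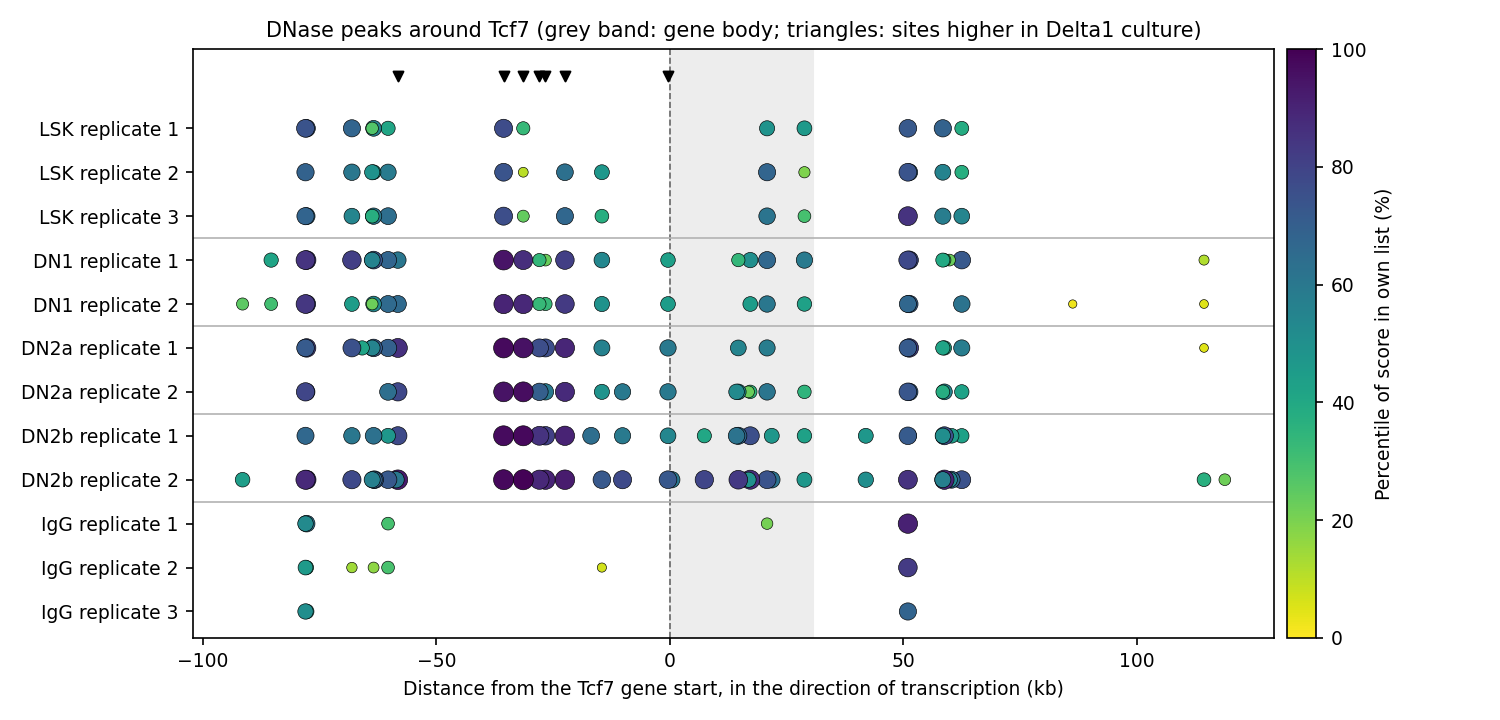
DNase peaks of the 12 libraries (rows) along the Tcf7 window, by distance from the gene start in kb (horizontal axis). Colour and size give the percentile of the peak's score in its own list, the grey band is the gene body, and triangles mark the 7 sites higher in Delta1 culture, of which 5 lie between -40 and -20 kb.

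At the Tcf7 promoter a peak was present in all 6 Delta1-cultured libraries and in no other. This site (chr11:52283297-52283506) covered the farthest upstream RefSeq start of Tcf7, in an intron of A630014C17Rik, a non-coding gene on the opposite strand. Its percentile was 43.6 and 45.2 in DN1, 59.5 and 59.5 in DN2a, and 54.3 and 73.0 in DN2b, with no peak in LSK or IgG. The groups did not overlap. The mean was 55.8 ± 10.8 (SD, n = 6) in Delta1 culture and 0 in the other 6 libraries, with an adjusted p of 0.0272 in the exact permutation test over 13606 promoters with a peak. Of all these promoters 12.8% were called higher and 0.588% lower. A peak in these 6 libraries and no other was found at 73 promoters, 0.537% of those tested. At equal list lengths the site had a peak in the 4 DN2 libraries only, at percentiles of 15.8, 29.0, 14.7 and 8.50, and the promoter was not called (adjusted p 0.214). Leaving out any 1 of the 6 Delta1-cultured libraries also ended the call, with adjusted p from 0.0746 to 0.0904 and a difference of 52.4 to 58.3. Of the 7 annotated Tcf7 starts, 4 lay within 1 kb of a peak in all 6 Delta1-cultured libraries, and the 2 farthest into the gene lay near none. A second promoter site inside the gene, at +0.423 kb, had a peak in DN2b replicate 2 only, at a percentile of 60.2.

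The sites that differed most lay upstream. In the exact permutation test over all 170207 DHSs, 7 of the 41 Tcf7 sites were called higher in Delta1 culture, all at the smallest p that the 924 divisions of the libraries allow (adjusted p 0.0394), and none was called lower. Over all DHSs 5.23% were called higher and 0.272% lower. These calls stand close to the threshold. Without DN1 replicate 1, DN2a replicate 1, DN2a replicate 2, DN2b replicate 1 or DN2b replicate 2, 0 DHSs were called in the genome, and the smallest adjusted p was 0.0553, 0.0583, 0.0520, 0.0520 and 0.0559. Without DN1 replicate 2, 7 Tcf7 sites were called again, but +58.8 and +14.7 kb took the place of -22.5 and -35.6 kb. Leaving out any 1 LSK or IgG library ended the calls at -26.6 kb (adjusted p 0.0607 to 0.0732) and -27.9 kb (0.0798 to 0.0975) and kept the other 5 (0.0408 to 0.0484). In the upper 50% of each list the calls at the promoter site, -26.6 and -27.9 kb were lost (adjusted p 0.259 in the same test). With LSK alone or IgG alone as the control 0 DHSs were called, and no p could fall below 0.0119. Apart from the promoter, 5 of the 7 were the only 5 sites between -40 and -20 kb, and the other lay at -58.2 kb. This stretch was picked out after its values were seen. All 6 are intergenic in GENCODE; RefSeq places a predicted non-coding gene, Gm30217, across part of the stretch, and one of its exons overlaps the -35.6 kb site.

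The largest difference was at -31.4 kb (chr11:52314297-52314646). Its percentile was 33.1, 10.5 and 24.1 in LSK, 86.7 and 88.7 in DN1, 95.7 and 96.8 in DN2a, and 97.9 and 99.3 in DN2b, and no IgG library had a peak. It was a low peak in progenitors and stood among the highest of the genome in every DN2 library. The means were 94.2 ± 5.19 (SD, n = 6) and 11.3 ± 14.3 (SD, n = 6). With equal list lengths it had a peak in the 6 Delta1-cultured libraries and no other, from 61.2 to 97.5, and was still called (adjusted p 0.0368). This was 1 of 30 Tcf7 sites left at equal lengths with that pattern, against 1.87% of all sites. Its sequence, printed above, holds 2 RUNX matches, an RBPJ match that begins on the last base of one of them, and a TCF/LEF match.

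The neighbouring -35.6 kb site (chr11:52318497-52318726) was open before culture. Its percentile was 77.3, 74.2 and 76.3 in LSK, 94.8 and 90.0 in DN1, 97.3 and 95.2 in DN2a, and 97.2 and 98.0 in DN2b, with no peak in IgG. LSK libraries lay well above IgG and below every Delta1-cultured library. The mean was 95.4 ± 2.94 (SD, n = 6) in Delta1 culture against 38.0 ± 41.6 (SD, n = 6), and the difference in means from LSK alone was 19.5. The -22.5 kb site (chr11:52305357-52305546) had no peak, 63.6 and 67.0 in LSK, and no peak in IgG. Its percentile was 81.5 and 83.1 in DN1, 89.4 and 88.2 in DN2a, and 90.2 and 92.4 in DN2b. LSK libraries again lay below every Delta1-cultured library, but LSK replicate 1, with no peak, did not stand above IgG. Both sites were called at equal list lengths too, with an adjusted p of 0.0368.

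The -58.2, -27.9 and -26.6 kb sites had a peak in every Delta1-cultured library and in none of LSK or IgG. At -58.2 kb (chr11:52341137-52341326) the percentile was 60.7 and 65.9 in DN1, 86.0 and 78.5 in DN2a, and 77.5 and 92.7 in DN2b. At -27.9 kb (chr11:52310857-52311086) it was 33.6 and 33.0 in DN1, 76.2 and 70.0 in DN2a, and 85.3 and 88.9 in DN2b. The -26.6 kb site (chr11:52309497-52309726) had 22.7 and 33.0 in DN1, 76.2 and 59.5 in DN2a, and 81.0 and 89.6 in DN2b. At all 3 the DN1 libraries lay below every DN2 library. With the promoter these made 4 of 41 sites with a peak in exactly the 6 Delta1-cultured libraries, a pattern held by 1.9% of all DHSs. No Tcf7 site had a peak in the 4 DN2 libraries alone, against 0.758% of all DHSs. At equal list lengths the promoter, -26.6 and -27.9 kb sites had no DN1 peak left and -58.2 kb kept 1, and none of the 4 was called for Delta1 culture. There, 4 of 30 Tcf7 sites had a peak in the 4 DN2 libraries alone, against 1.99% of all sites.

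DN2 libraries were compared with all others separately, since CD25 first appears at that stage. As deposited, no DHS in the genome was called by the exact permutation test for DN2a and DN2b (4 libraries) against the other 8; the smallest adjusted p was 0.0784, and 18273 DHSs had an unadjusted p under 0.05. These included 10 of the 41 Tcf7 sites and 4 of the 44 Lef1 sites, against 10.7% of all DHSs. The Tcf7 promoter had an adjusted p of 0.164, and the difference in the number of Tcf7 sites was 13.5 (adjusted p 0.408). At equal list lengths the same test called 4.14% of DHSs higher and 1.03% lower, among them 6 Tcf7 sites, all higher: the promoter site and the +14.7, -26.6, -27.9, -31.4 and -58.2 kb sites (adjusted p 0.0391). In the separate test over promoters the Tcf7 promoter was not called for DN2 at equal lengths either (adjusted p 0.0746). The share called higher for Delta1 culture at equal lengths was also 4.14%, with 1.74% lower. The +14.7 kb site (chr11:52268217-52268566), in an intron of Tcf7, had as deposited no LSK or IgG peak, a percentile of 33.6 in DN1 replicate 1 and none in the other, 54.9 and 52.5 in DN2a, and 66.8 and 83.3 in DN2b. The +58.8 kb site (chr11:52224097-52224306), beyond the gene in an intron of the non-coding gene Gm26551, was alike, with 31.5 in DN1 replicate 1, 41.4 and 54.4 in DN2a, and 76.0 and 89.6 in DN2b. At equal lengths it had a peak in 3 DN2 libraries only. It was not called under either list length.

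The start of Skp1a, which codes for a subunit of SCF ubiquitin ligases, lies in the window at +51.0 kb, and the start of Vdac1, a channel of the mitochondrial outer membrane, at -78.0 kb. These were the 2 Tcf7 window sites with a peak in all 12 libraries, a pattern of 7.68% of all DHSs. The Skp1a site ranged from 67.2 to 90.8, with the highest percentile in IgG replicate 1, and was not called as deposited (adjusted p 0.813). At equal list lengths it was called lower in Delta1 culture, at 43.0 against 70.0 (adjusted p 0.0368). The Vdac1 site had 74.5, 68.8 and 68.3 in LSK, 66.8 to 88.6 in Delta1 culture, and 52.4, 45.9 and 50.9 in IgG, below every other library. It was not called either, at 79.2 against 60.1 (exact permutation test, adjusted p 0.134).

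Sites gained or lost were counted between successive groups. With the lists as deposited the largest count of Tcf7 gains was at the first step, as it was over all DHSs. The DHSs gained in the genome numbered 13229 from LSK to DN1, 2216 from DN1 to DN2a and 6442 from DN2a to DN2b. A site was counted where all libraries of a group had a peak and those of the compared group had none; with 2 or 3 libraries a group the exact permutation test cannot reach 0.05, and these counts are given without a test. From LSK to DN1, 7 of 41 Tcf7 sites were gained and 0 lost, against 7.77% and 1.17% of all DHSs. These were the promoter and the +114.4, +17.2, -26.6, -27.9, -58.2 and -85.4 kb sites. From DN1 to DN2a, 0 were gained and 1 lost, against 1.3% and 6.32%, and the step from DN2a to DN2b added 5 and removed 0, against 3.78% and 0.533%. The 5 late sites (+60.4, +42.0, +21.8, +7.4 and -63.2 kb) had percentiles of 38.1 to 47.0 in DN2b replicate 1 and 51.0 to 79.6 in replicate 2, the longest list. From LSK to IgG, 0 were gained and 6 lost, against 2.51% and 7.87%, the IgG lists being shorter. At equal list lengths the largest count of Tcf7 gains was at the DN1 to DN2a step. From LSK to DN1 only the -31.4 kb site was then gained and +58.5 kb lost, against 5.61% and 4.37% of all sites. From DN1 to DN2a 5 were gained and 0 lost, against 3.96% and 4.42%, and from DN2a to DN2b +17.2 kb was gained and +51.3 kb lost, against 2.63% and 2.6%. From LSK to IgG 2 Tcf7 sites were lost, at +58.5 and -35.6 kb, against 7.06%.

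**Figure D2:**
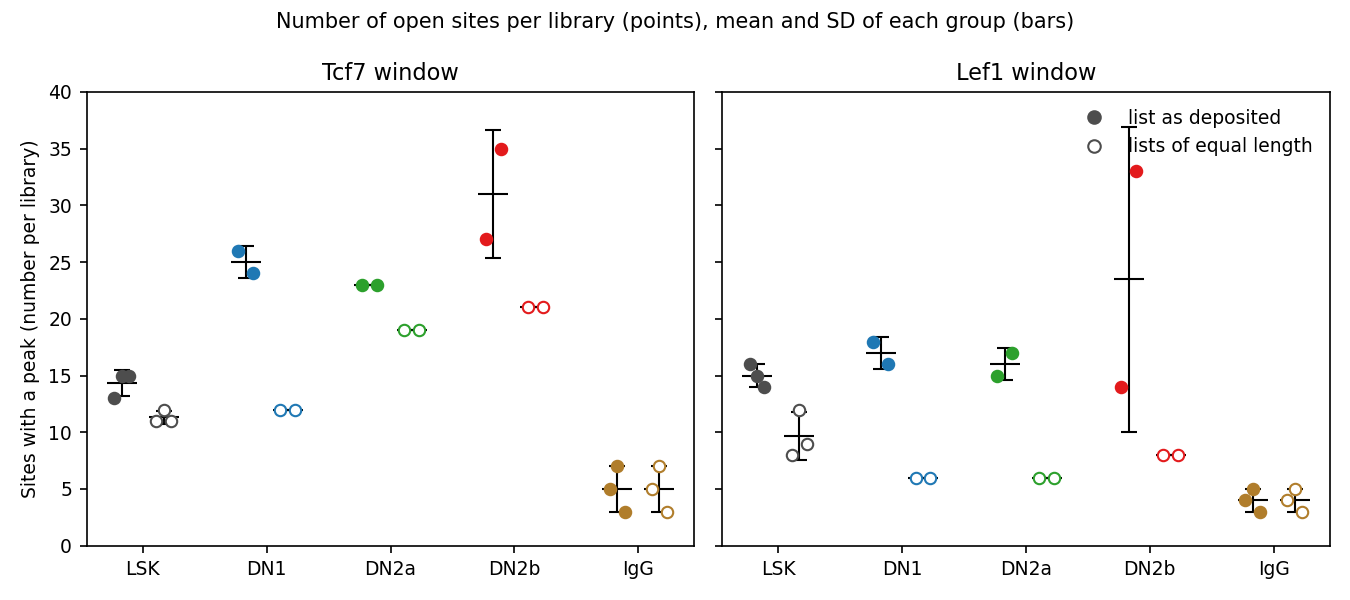
Number of sites with a peak in the Tcf7 and Lef1 windows in each library (vertical axis) by group, with the lists as deposited (filled) and at equal length (open); bars are the group mean and SD, n = 3 for LSK and IgG and n = 2 for the others. In the Tcf7 window DN2a and DN2b stay above LSK at equal lengths (19 and 21 sites against 11 or 12), while in the Lef1 window all Delta1-cultured libraries then hold 6 or 8.

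The Lef1 window changed less. Its sites with a peak numbered 16, 15 and 14 in LSK, 18 and 16 in DN1, 15 and 17 in DN2a, 14 and 33 in DN2b, and 4, 5 and 3 in IgG. Apart from DN2b replicate 2, the Delta1-cultured libraries overlapped LSK, and the IgG libraries lay below both. Delta1 culture gave 18.8 ± 7.08 sites (SD, n = 6) and the other libraries 9.50 ± 6.09 (SD, n = 6), a difference of 9.33 with an adjusted p of 0.0729 in the exact permutation test, so no call was made. A larger difference was found in 3068 windows. With 200 kb either side of the genes the Lef1 difference was 13.3 sites and was called (adjusted p 0.0242 in the same test). At equal list lengths the numbers were 8, 12 and 9 in LSK, 6, 6, 6, 6, 8 and 8 in DN1, DN2a and DN2b, and 4, 5 and 3 in IgG, and the difference fell to -0.167. Of the 44 Lef1 sites, 23 had a peak in 1 library only, against 32.7% of all DHSs, and 16 of the 23 were in DN2b replicate 2. That list also held 39.6% of the single-library sites of the genome. The Tcf7 window had 6 such sites, 3 of them in DN2b replicate 2. No Lef1 site was called in either direction for Delta1 culture (2 were without LSK replicate 2, and 2 without DN1 replicate 2), and 5 of 44 had an unadjusted p under 0.05, against 15 of 41 at Tcf7 and 15.1% of all DHSs. Whether the loci differ was not tested.

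**Figure D3:**
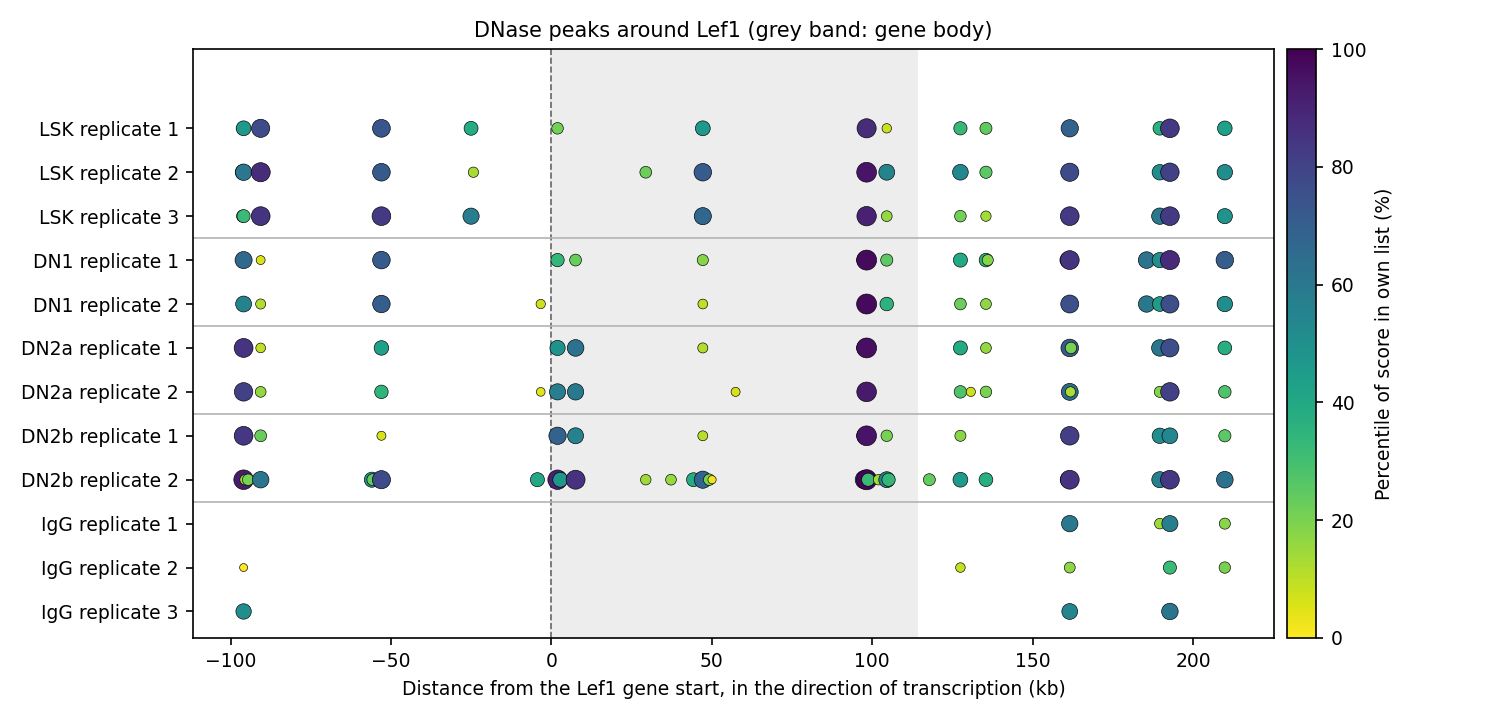
DNase peaks of the 12 libraries (rows) along the Lef1 window, by distance from the gene start in kb (horizontal axis), drawn as for Tcf7 with colour and size for the percentile and a grey band for the gene body. The +98.2 kb site stands at 87.9 or above in the 9 libraries other than IgG, and no peak lies at the gene start in any library.

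At the GENCODE start of Lef1 no library had a peak within 1 kb. A gene start without a peak in any library was common, at 8149 of 21755 protein-coding genes, but few of them had as much CpG. The ratio of observed to expected CpG in the 2 kb around the start was 0.694, higher than at 79.7% of protein-coding starts, and of the 4414 starts with at least this ratio 5.44% had no peak. The ratio at the Tcf7 start was 0.735. The nearest Lef1 site lay at +1.9 kb (chr3:131112297-131112526), within 1 kb of internal starts of the gene, in an intron by GENCODE and in the first exon of predicted RefSeq transcripts. Its percentile was 21.2 in LSK replicate 1 and none in the other 2 LSK libraries, 33.6 and no peak in DN1, 49.3 and 57.9 in DN2a, and 68.9 and 91.0 in DN2b, with no peak in IgG. All DN2 libraries were above all others. It had a peak in 3 libraries only at equal list lengths, DN2a replicate 2 at 26.2 and both DN2b libraries, the lower at 42.0. The other sites near a Lef1 start, at +2.8 and +46.7 kb, had a peak in DN2b replicate 2 only, at 47.1 and 14.3. Taken at the internal start at chr3:131112797, chosen after the gene start was seen to be empty, the promoter had an adjusted p of 0.0732 for Delta1 culture and 0.163 for DN2 by the exact permutation test.

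The site of highest median percentile in the Lef1 window lay far into the gene, at +98.2 kb (chr3:131208637-131208806), in an intron. Its percentile was 87.9, 94.8 and 90.9 in LSK, 97.4 and 97.3 in DN1, 96.2 and 93.1 in DN2a, and 94.8 and 99.0 in DN2b, with no peak in IgG. LSK and Delta1-cultured libraries overlapped, and the IgG libraries stood apart. It was 1 of 3 Lef1 sites with a peak in all 9 libraries but IgG, as were 3 Tcf7 sites, against 3.17% of all DHSs. It kept that pattern at equal list lengths, and the test of Delta1 culture gave an adjusted p of 0.0896 as deposited. The +97.5 kb site beside it (chr3:131207617-131208266) had 48.9 and 35.7 in DN1, 51.3 and no peak in DN2a, 50.8 and 79.6 in DN2b, and no peak in LSK or IgG.

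Other Lef1 sites were higher in DN2 libraries or in LSK. The +7.5 kb site (chr3:131117857-131118086), in an intron, had a percentile of 22.7 and no peak in DN1, 62.3 and 59.5 in DN2a, 55.9 and 85.9 in DN2b, and no peak in LSK or IgG. At -96.0 kb (chr3:131014377-131014706), in intergenic sequence, it was 46.2, 60.5 and 32.1 in LSK, 66.6 and 55.1 in DN1, 85.0 and 80.7 in DN2a, 84.1 and 92.7 in DN2b, and none, 0.718 and 50.9 in IgG. DN2 libraries lay above every other library at both sites. These were the 2 of 17 Lef1 sites left at equal list lengths that were called higher for DN2 (adjusted p 0.0391), against 4.14% of all DHSs.

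By contrast the -90.6 kb site (chr3:131019697-131020006) was highest in LSK, at 77.3, 87.9 and 84.7, with 5.49 and 11.9 in DN1, 9.65 and 16.1 in DN2a, 23.0 and 61.3 in DN2b, and no peak in IgG. The intronic +47.2 kb site (chr3:131157537-131157766) was alike, at 46.2, 71.1 and 67.0 in LSK and 18.3, 9.72, 11.7, none, 10.8 and 67.7 in the successive Delta1-cultured libraries. All 6 Delta1-cultured libraries lay below LSK at -90.6 kb, and all but DN2b replicate 2 did at +47.2 kb. The -53.0 kb site (chr3:131057377-131057626) had 73.4, 72.2 and 82.9 in LSK, 71.6 and 70.6 in DN1, 43.5 and 35.1 in DN2a, 5.92 and 77.4 in DN2b, and none in IgG. These 3 were named after their values were seen, and the tested contrasts, which join LSK with IgG, called none of them. With equal list lengths the -90.6 and +47.2 kb sites had a peak in the 3 LSK libraries and no other, and -53.0 kb in the 3 LSK, both DN1 and DN2b replicate 2. From LSK to DN1, 2 of 44 Lef1 sites were gained as deposited, at +97.5 and +185.5 kb, and 0 lost, against 7.77% and 1.17% of all DHSs. Equal list lengths turned this round, with 0 gained and 2 lost, at -90.6 and +47.2 kb, against 5.61% and 4.37% of all sites. From LSK to IgG, 0 were gained and 7 lost as deposited, against 2.51% and 7.87%, and 0 were gained and 4 lost at equal lengths, against 7.27% and 7.06%. The starts of Hadh, a mitochondrial enzyme of fatty acid oxidation, at +161.6 kb and of Cyp2u1, a cytochrome P450, at +192.8 kb were the 2 sites with a peak in all 12 libraries, at 17.0 to 85.0 and 32.4 to 88.0.

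**Figure D4:**
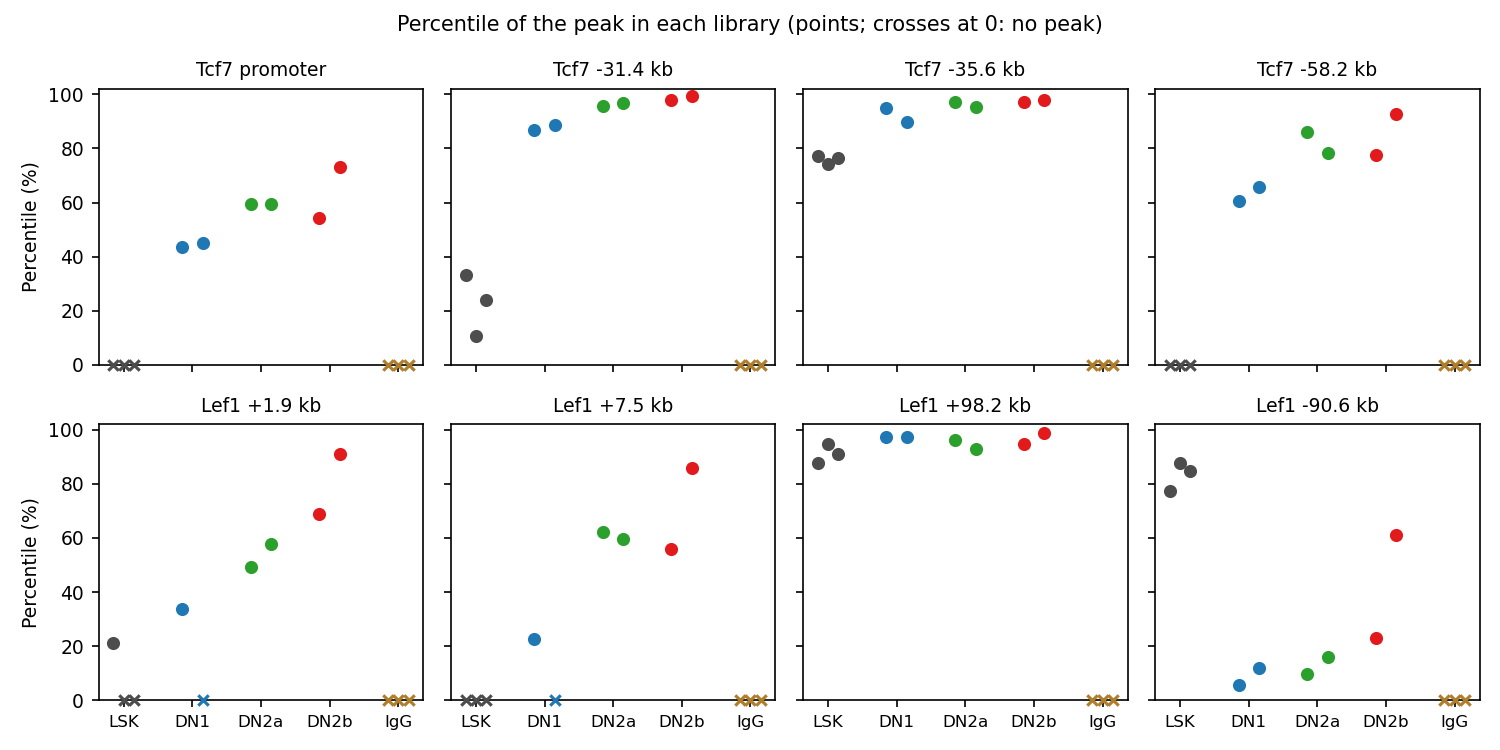
Percentile of the peak in each library (vertical axis, percent; crosses at 0 mean no peak) by group at 4 Tcf7 sites (upper row) and 4 Lef1 sites (lower row). At Tcf7 the Delta1-cultured libraries stand above LSK at all 4 sites, while at Lef1 the +98.2 kb site overlaps between them and the -90.6 kb site is highest in LSK, at 77.3 to 87.9.

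The pathway in which these factors act was described through the promoters of 43 genes in 6 lists. A peak was found in at least 1 library at 39 of them, and in all 12 libraries at 26. Of the 39, 9 were called higher in Delta1 culture and 0 lower by the exact permutation test, with a median difference of 5.58 percentile points against 5.83 over all promoters tested and 12.8% of them called. Without any 1 of the 6 Delta1-cultured libraries 0 promoters were called in the genome by the same test, so all 9 were lost, and at equal list lengths, a count added after the calls were seen, 1 of 36 was called higher (Gsk3a) and 1 lower (Ctbp1), against 2.85% and 2.92% of all promoters tested. None was called for DN2, as for all promoters, where 1418 had an unadjusted p under 0.05. Among the other factors of the family, the promoter of Tcf7l2, which codes for TCF4, was called higher. Its percentile was 81.0, 82.7 and 84.1 in LSK, 90.5 and 90.0 in DN1, 89.9 and 86.6 in DN2a, 85.9 and 93.4 in DN2b, and 52.4, 26.2 and 76.3 in IgG (adjusted p 0.0272). It was thus open in every library, unlike Tcf7 and Lef1. Tcf7l1, which codes for TCF3 and acts mostly as a repressor, had 58.6, 72.2 and 72.7 in LSK and 40.7 to 73.4 in Delta1 culture, with no peak in IgG (adjusted p 0.317). It had a peak in 6 libraries at equal list lengths, and the difference turned from 22.9 to -12.5 (adjusted p 0.550).

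Of the destruction complex, which marks beta-catenin for degradation, 3 of 7 promoters were called higher, against 12.8% of all promoters tested. Among the promoters called in this paragraph, only Gsk3a was still called higher at equal list lengths. Axin2, a Wnt target and scaffold, had 67.7, 81.4 and 71.6 in LSK, 87.6 and 77.8 in DN1, 90.4 and 81.5 in DN2a, 91.5 and 94.0 in DN2b, and none in IgG (adjusted p 0.0388). LSK and Delta1-cultured libraries overlapped there. Axin1, the other scaffold, was at 98.8 ± 0.823 (SD, n = 6) against 93.7 ± 3.48 (SD, n = 6), and Gsk3a, a kinase of the complex, at 95.3 ± 1.40 against 78.8 ± 14.3 (both adjusted p 0.0272). Of 8 genes for beta-catenin and its coactivators, Bcl9l, a bridge between beta-catenin and Pygopus proteins, was called, at 91.0 ± 2.53 against 68.9 ± 15.7 (adjusted p 0.0272). The promoter of Ctnnb1, beta-catenin itself, had no peak in any library. Of 8 corepressor genes 2 were called, the Groucho family member Tle1 at 97.6 ± 1.65 against 92.0 ± 3.07 and the histone deacetylase Hdac2 at 77.8 ± 4.34 against 53.1 ± 14.4 (both adjusted p 0.0388). Of 12 Wnt receptor genes only Fzd5 was called, at 88.3 ± 4.77 against 72.9 ± 3.84 (adjusted p 0.0272), and of 4 feedback genes none was. IgG had the lowest group mean at Tcf7l2, Axin1, Axin2, Gsk3a, Bcl9l, Tle1, Hdac2 and Fzd5. Single IgG and LSK libraries overlapped at Axin1, Tle1, Hdac2 and Fzd5.

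The promoters most like that of Tcf7 over the 12 libraries, by Pearson correlation of percentiles among 13605 others, were those of Gdf11 (r = 0.996), Trim13 (0.992), Hsd11b1 (0.992), C1qtnf1 (0.990) and Nkg7 (0.990). Gdf11 codes for a secreted factor of the TGF-beta family, Hsd11b1 for an enzyme of glucocorticoid activation and Nkg7 for a protein of cytotoxic granules. All 5 had a peak in the 6 Delta1-cultured libraries and no other, so the absence of a peak in the same 6 libraries makes up much of the likeness. Gdf11, the closest, had 52.2 and 45.2 in DN1, 60.9 and 68.9 in DN2a, and 54.3 and 79.0 in DN2b. No such list could be made for the Lef1 start, which had no peak.

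Letters of 7 motifs were searched on both strands in the 150 bp of the highest peak of every site, and matches of different motifs may overlap. TCF/LEF letters, CTTTGA, were in 5 of 41 Tcf7 sites and 4 of 44 Lef1 sites, against 11.2% of all DHSs. Of the 7 Tcf7 sites higher in Delta1 culture, 3 held them: -26.6 kb, -31.4 kb and the promoter site, in the last case within the part not printed. The letters searched for RBPJ, the factor that carries Notch to DNA, were TGGGAA. They were in 4 Tcf7 and 4 Lef1 sites, against 12.8%, and among the 7 in the -31.4 kb site alone. RUNX letters, TGTGGT, were in 8 Tcf7 and 9 Lef1 sites, against 23.1% of all DHSs. Letters for E proteins, CAGCTG, were in 9 Tcf7 and 11 Lef1 sites, against 11.5% of all DHSs. C/EBP letters, TTGCNNAA, were in 4 sites of each window, against 7.89% of all DHSs. Letters for the progenitor and myeloid factor PU.1, GAGGAA, were in 3 of 41 Tcf7 sites and 11 of 44 Lef1 sites, against 24.0%. The GATA letters were AGATAA, found in 2 sites of each window, against 8.29% of all DHSs. None of the 7 sites held PU.1 or GATA letters. At Lef1 the -96.0 kb site held TCF/LEF, RUNX, GATA and PU.1 letters, the TCF/LEF and PU.1 runs sharing bases, and the +98.2 kb site held RUNX letters only. These are matches of letters, with no test.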

How the data were processed

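DNase-seq measured open chromatin in the 12 libraries. Per the study's methods, the authors aligned reads to mm10 with bwa (BWA 0.7.12 in the submitters' processing notes, which also list SAMtools 1.2) and used hotspot2 as the peak caller, with false discoveries limited to a rate of 0.05. The deposited lists, 1 for each library, give positions and a whole-number score of unstated meaning for peaks of 150 bp. The score was used only for ranks within a list, as a percentile with ties at their mean rank.

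Peaks on autosomes and X were merged into DHSs where they overlapped by at least 1 bp, and a site took its highest peak. Promoters were 1 kb either side of the 5′ end of protein-coding genes in GENCODE M21; the study used another release. No peak ran past a chromosome end of GRCm38, and no pair of lists was identical. Delta1 culture (DN1, DN2a, DN2b) was compared with LSK and IgG, and DN2a and DN2b with the rest, by the two-sided exact permutation test over libraries with Benjamini-Hochberg adjustment over all DHSs, windows or promoters. The smallest possible p was 0.00216 over 924 divisions and 0.00202 over 495. An adjusted p under 0.05 therefore needs about 4.33% or 4.04% of all features at that p, and a call at one site depends on how many others reach it. The test was also run on simulated data, and no result here rests on that run.

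Libraries were treated as independent. Replicates came from independent LSK isolates, but DN populations can share an isolate, and the labels do not say which; replicate numbers are names given in deposition order. The members, lists, motifs and tests were chosen with earlier results of these data known. Sites named were those within 1 kb of a start of the gene, the 5 with the largest difference in each contrast and window, those with a peak in exactly the 6 Delta1-cultured libraries, the 4 DN2 libraries or the LSK and IgG libraries, and the 2 of highest median percentile; any other is said to be chosen later or stands in a count. Alternatives were list length, score threshold, window, merging, promoter definition, raw score, control group and leaving out each library. Scripts used Python 3.11.15, numpy 2.4.6, pandas 2.3.3, scipy 1.17.1 and pysam 0.24.0.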

Additional observations from a re-analysis of the deposited data

How the results depend on the processing

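With equal list lengths the Tcf7 differences for Delta1 culture were 9.17 sites (adjusted p 0.0755) and 11.3 percentile points at the promoter (0.214), and 4 Tcf7 sites were called, 3 of the 7 higher and the Skp1a site lower; for DN2, 6 Tcf7 and 2 Lef1 sites were, all higher. The Lef1 site difference turned to -0.167, and to -0.433 with DN2b replicate 2 left out too, where Tcf7 gave 8.43 (adjusted p 0.104), both chosen after seeing the data. In the upper 50% of each list the Tcf7 promoter difference was 15.4 (adjusted p 0.163) and 4 sites were called. Per 10000 peaks the Tcf7 difference was 1.53 sites (0.0679). With 200 kb either side the Lef1 difference was 13.3 sites and passed (0.0242). With LSK alone as the control, Tcf7 gave 12 sites (0.389), 55.8 at the promoter (0.115) and 0 sites called, and with IgG alone 21.3 sites (0.0548), 55.8 at the promoter, which passed (0.0302), where 38.4% of promoters were called higher, and 0 sites called; 6 against 3 libraries cannot give a p below 0.0119. At Lef1 a promoter window of 2.5 kb or every annotated start gave 46.6 for Delta1 culture and 59.9 for DN2, as did the internal start. Leaving out each library gave 14.9 to 17.7 Tcf7 sites, 52.4 to 58.3 at the Tcf7 promoter, 0 to 7 Tcf7 sites called and 0 to 2 Lef1 sites. The cause of these changes was not tested. Of the other 209 recomputed values of the main comparisons, 27 called values stayed called, 78 values not called stayed so, and 12 counts of called sites stayed within 1.5 times the main count. The remaining 92 were 0 throughout, with no direction to keep, and say nothing of stability. Depth is unknown, so an absent peak in the short IgG lists is not evidence of closed chromatin. No paired analysis was possible because the labels give no replicate numbers and do not say which libraries share an LSK isolate.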
